A study of Mus musculus with 54 samples.

Results

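A set of 9 genes of the contractile apparatus of smooth muscle was followed through the sorted cell populations of the fetal mouse small intestine. The set was chosen by gene symbol and holds 9 of the 17393 genes in the series: the actins Actg2 and Acta2, the myosin heavy chain Myh11, the actin-binding proteins Cnn1, Tagln and Synpo2, the intermediate filament Des, the kinase Mylk and the transcriptional coactivator Myocd. Smooth muscle contracts when calcium and calmodulin activate myosin light chain kinase, the product of Mylk, which phosphorylates the myosin that then pulls on actin filaments. Myocardin, the product of Myocd, binds serum response factor at CArG boxes in the promoters of contractile genes and raises their transcription. In the fetal intestine this muscle forms the circular and longitudinal layers of the wall, and some contractile genes are also expressed in fibroblasts and, at a low level, in other cells.

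The series holds 54 libraries in 20 groups, of which 17 have 3 libraries and 3 have 1 library. From E16.5 intestines of untreated C57Bl/6J mice, 3 mesenchymal populations free of EpCAM, CD31 and CD45 were sorted: CD29-HIGH cells, PDGFRA-HIGH cells with medium CD29, and PDGFRA-MED cells with medium CD29. EpCAM+ epithelium was sorted from the same strain and stage, and also from E13.5. Each E16.5 intestine was cut into 5 sections, of which the first, middle and last are called proximal, mid and distal, whereas proximal and distal regions were taken at E13.5. In a separate experiment on Top.CFP mice, dams were dosed 2 times daily, beginning at E12.5 and ending at E16.5, with vehicle or with LGK974, an inhibitor of porcupine that blocks the secretion of Wnt ligands. From their fetuses EpCAM+ epithelium was sorted at E16.5 with 3 LGK974 libraries and 1 vehicle library per region. Because the dam was dosed, exposure to the inhibitor was not limited to the epithelium. The sources used here do not say how many fetuses went into a library, so p-values measure the spread between libraries only. Depth was between 15072991 and 26658039 reads per library.

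The sort labels were checked on their own markers. Pdgfra averaged 907 RPKM in PDGFRA-HIGH libraries and 83.7 RPKM in PDGFRA-MED libraries, but only 4.79 RPKM in CD29-HIGH libraries, although the labels give CD29-HIGH cells as medium for PDGFRA. Itgb1, which encodes CD29, averaged 484 RPKM in CD29-HIGH libraries and 184 RPKM in PDGFRA-MED libraries. Epcam averaged 523 RPKM in EpCAM libraries and 3.73 RPKM in PDGFRA-MED libraries. RPKM divides reads by gene length and library size, so levels can be compared between genes. In bulk libraries such as these, fewer cells of a type and less RNA per cell cannot be told apart.

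Actg2 and Acta2 encode nearly the same protein, and a read that mapped equally well to 2 annotated genes was not counted for either, so their coding sequences were compared first. They were identical at 945 of 1128 aligned coding bases (83.8%). The longest run without a difference was 29 bases, shown in capitals within its surroundings in the mouse transcripts (coding bases 624 to 672 of Actg2, chromosome 6, and 627 to 675 of Acta2, chromosome 19). These are shown because they limit how far reads of one actin could be taken for the other: no stretch of 50 bases was common to both.
Actg2: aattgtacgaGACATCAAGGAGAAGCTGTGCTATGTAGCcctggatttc
Acta2: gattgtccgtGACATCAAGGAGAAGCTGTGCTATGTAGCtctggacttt

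Stretches of 50 bases in the protein-coding transcripts of every member were also looked for in all annotated mouse transcripts of other genes. Actg2, Cnn1, Des, Tagln and Mylk shared 0 stretches of 50 bases with another gene. Acta2 shared 7 of 2146 (0.326%) with the actin copy Actg-ps1, and Myh11 shared 26 of 6655 (0.391%), all of them with Myh9, the nonmuscle myosin heavy chain. Myocd shared 1 of 5161 and Synpo2 shared 5 of 13011. On GRCm38.p6 the genes lie apart on separate chromosomes for the most part, with Actg2 on chromosome 6 (83512909 to 83536251), Acta2 on 19 (34240336 to 34255585), Des on 1 (75360292 to 75368579), Myocd on 11 (65173608 to 65269989) and Synpo2 on 3 (123076519 to 123236168). Cnn1 (22099221 to 22109221) and Tagln (45929628 to 45936058) share chromosome 9, and Myh11 (14194527 to 14292188) and Mylk (34745199 to 35002436) share chromosome 16. Mylk was counted as 1 gene, so that the short kinase of smooth muscle, the long kinase of other cells and telokin, which are made from the same gene, cannot be told apart.

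A CArG box was looked for in the 250 bases before the annotated start, on both strands, because it is the element at which myocardin and serum response factor act. RefSeq windows on GRCm38.p6 were at hand for 5 members, Acta2, Cnn1, Des, Mylk and Synpo2. An exact CArG box was in 0 of the 5 windows, against 1.47% of 32851 windows of all genes. With up to 1 change allowed in its middle, the window of Acta2 alone held it, at 2 places, and 8.59% of all windows held it at least at 1 place. Both are shown, with the 10 bases of the match in capitals, and they begin 84 and 34 bases before the annotated start.
Acta2, chr19:34255438-34255467, minus strand: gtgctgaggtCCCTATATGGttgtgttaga
Acta2, chr19:34255388-34255417, minus strand: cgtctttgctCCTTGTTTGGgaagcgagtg
A match describes letters only, and no binding was measured.

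All 9 members were abundant in CD29-HIGH cells. Over the 9 CD29-HIGH libraries, the levels ran in the order Actg2 (5320 to 9153 RPKM), Acta2 (3710 to 6146), Myh11 (2945 to 5504), Tagln (1507 to 2107), Des (572 to 1757), Mylk (687 to 1351), Cnn1 (608 to 944), Synpo2 (217 to 360) and Myocd (107 to 127). Neighbours in this order overlapped in their ranges, except Myh11 with Tagln, Cnn1 with Synpo2, and Synpo2 with Myocd. Myocd was the least abundant member and also the steadiest, with its highest library 1.19 times its lowest.

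**Figure D1:**
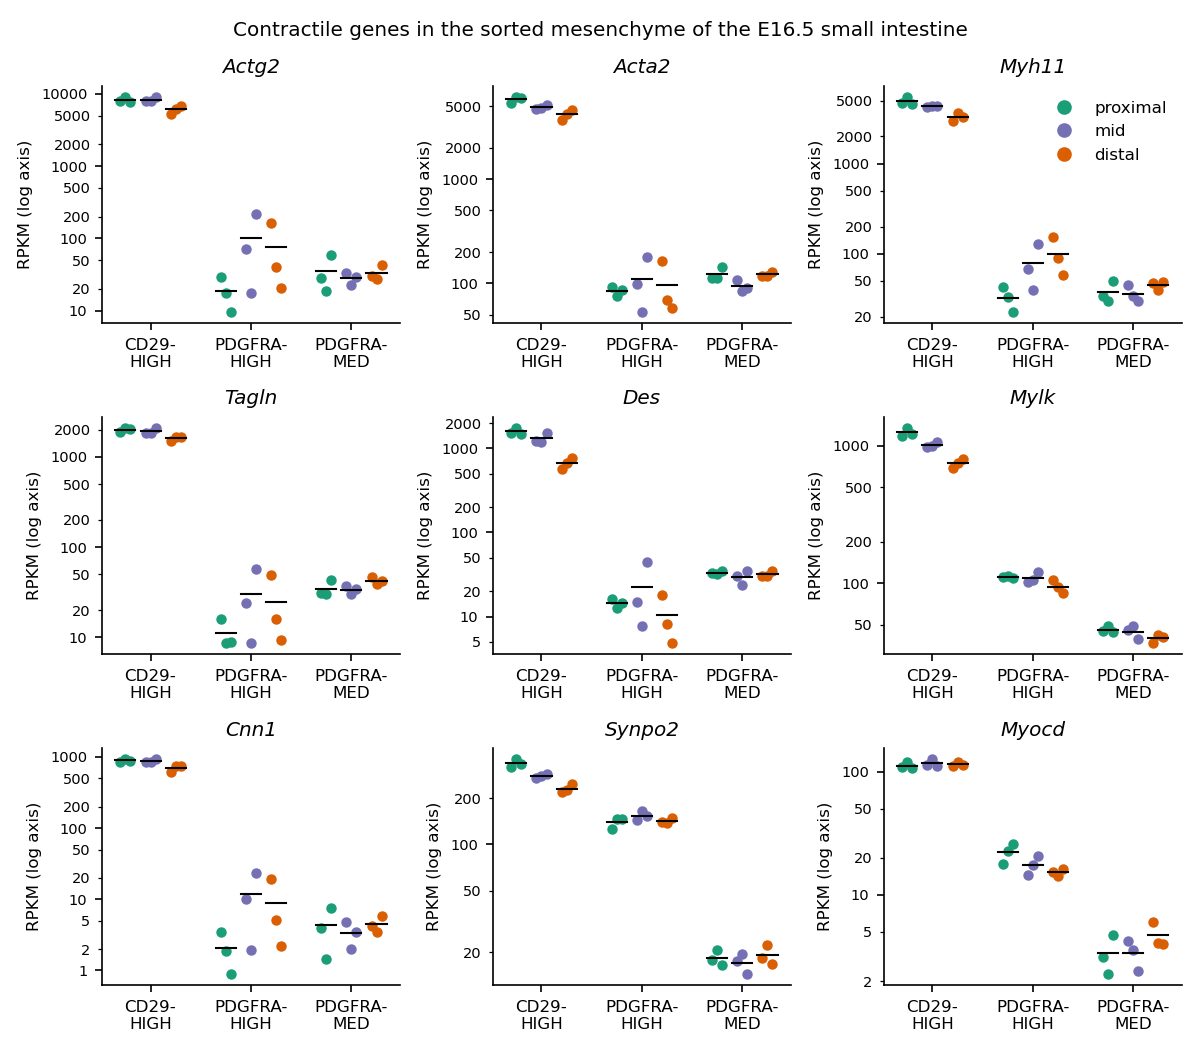
Level of each contractile gene in the 3 mesenchymal sorts of the E16.5 small intestine, in RPKM on a log axis, with 1 point per library, coloured by region, and a line at the mean of the 3 libraries of a region. All 9 CD29-HIGH libraries lie above every other library for each gene, while the PDGFRA-HIGH libraries split, with Mylk, Synpo2 and Myocd above PDGFRA-MED and Actg2 and Cnn1 spread by factors of 22.7 and 26.3 between their highest and lowest library.

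Setting CD29-HIGH against PDGFRA-MED cells asks what marks this sort within the mesenchyme. All 9 members were higher in CD29-HIGH cells in each of the 3 regions, in every same-numbered pair and without overlap between libraries. Over all genes tested, 13.3% were higher in proximal, 12.1% in mid and 11.2% in distal cells, and 14.4% in the mean over regions. The members differed widely in how far they stood above PDGFRA-MED cells, and their median log2 fold change was 5.50, against 0.01 over all genes. Since the members were chosen with earlier results of these data known, these values describe the set and are no independent test of it. The 2 smallest differences belonged to Mylk, at 4.53 ± 0.04 (SE), and to Synpo2, which encodes a scaffold that bundles actin filaments, at 3.96 ± 0.05 (limma, adjusted p = 4.4e-18 and 8.03e-17). Myocd averaged 114 RPKM in CD29-HIGH cells and 3.69 RPKM in PDGFRA-MED cells, a log2 fold change of 4.83 ± 0.13 (limma, adjusted p = 9.88e-12).

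Other genes of muscle contraction moved with the members. Of 16 partners of the contractile filaments 15 were higher in CD29-HIGH cells, with a median log2 fold change of 3.04, and Tpm4 did not pass the test. The largest differences were those of Lmod1, a leiomodin that starts actin filaments, at 5.82 ± 0.12, the regulatory light chain Myl9 at 5.18 ± 0.04, and the tropomyosins Tpm2 at 4.48 ± 0.05 and Tpm1 at 3.87 ± 0.04. Of 16 genes that control contraction 11 were higher, led by the large-conductance potassium channel Kcnma1 (4.996 ± 0.08), the L-type calcium channel Cacna1c (3.98 ± 0.08), the channel subunit Kcnmb1 (3.395 ± 0.08) and the ryanodine receptor Ryr2 (3.21 ± 0.07). Among 6 receptors tested 4 were higher, including the muscarinic receptor Chrm2 (4.65 ± 0.06) and the tachykinin receptors Tacr2 (4.04 ± 0.06) and Tacr1 (3.41 ± 0.06), and the endothelin receptor Ednra was lower (-1.34).

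The transcription factors of muscle were less uniform. Of 12 factors 4 were higher in CD29-HIGH cells, where 14.4% of all genes were, and 3 were lower, and the median log2 fold change was 0.05. The share of all genes that were lower is not given here. Srf, the partner of myocardin, averaged 67.4 RPKM in CD29-HIGH cells and 20.8 RPKM in PDGFRA-MED cells (1.70 ± 0.06), and Mef2c was higher by 1.56 ± 0.09. Gata6 (-1.78 ± 0.17) and Nkx2-3 (-1.33 ± 0.08) were lower. The genes whose levels over the 18 libraries were most like the mean of the members were Nipal4, Dstn, Nacc2, Hcn4 and Fbxl22, with Pearson correlations of 0.998 to 0.999, as a description that rests mainly on the gap between the sorts.

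Markers of other cells were read beside these values. The summed level of 7 vascular mural cell markers in the table was 238 to 367 RPKM in CD29-HIGH libraries and 179 to 215 RPKM in PDGFRA-MED libraries. The summed level of 5 markers of interstitial cells of Cajal was 74.4 to 120 RPKM in CD29-HIGH libraries and 77.5 to 120 RPKM in PDGFRA-MED libraries, but the markers differed among themselves. Thbs4, the most abundant, averaged 54.2 RPKM in CD29-HIGH and 62.7 RPKM in PDGFRA-MED libraries and did not pass the test (-0.18 ± 0.08). Ano1 was higher in CD29-HIGH cells, with means of 36.04 and 4.47 RPKM (2.92 ± 0.12), whereas Kit (-1.11 ± 0.14), Etv1 (-1.07 ± 0.05) and Cd34 (-3.71 ± 0.13) were lower. The 4 striated muscle markers in the table summed to 85.8 to 273 RPKM in CD29-HIGH libraries and 3.71 to 8.99 RPKM in PDGFRA-MED libraries, with Myl1 at 0 in all 3 proximal CD29-HIGH libraries. In the mean over regions Actc1 (6.47 ± 0.09), Ckm (5.52 ± 0.09) and Acta1 (1.48 ± 0.07) were higher in CD29-HIGH cells. Myl1 was lower there (-1.22 ± 0.24). The 7 fibroblast markers summed to 1812 to 2428 RPKM in CD29-HIGH libraries and 5461 to 9102 RPKM in PDGFRA-MED libraries. The part of these cells in the members' levels was not tested.

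Within CD29-HIGH cells, levels were compared along the intestine. Desmin, the intermediate filament that ties contractile units together, had 572, 670 and 762 RPKM in distal libraries, against 1518, 1757 and 1494 RPKM in proximal libraries, with 1223, 1204 and 1520 RPKM in mid libraries. Every distal library was below every mid and proximal one. The log2 fold change of distal over proximal was -1.26 ± 0.11 (limma, adjusted p = 0.00038, lower in 3 of 3 same-numbered pairs). Des was the single member of the 9 to pass, where 1.39% of all genes were lower and 2.26% differed in either direction. The call was lost without replicate 1 of the whole table, at -1.18 with an adjusted p of 0.052, and the log2 fold change ranged from -1.40 to -1.13 over 16 alternatives.

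For the other 8 members no distal difference passed the test, which asks for evidence of a change beyond 0.5 on the log2 scale. Mylk had 687, 748 and 802 RPKM in distal libraries, against 1185, 1351 and 1217 RPKM in proximal libraries. Its difference of -0.75 ± 0.08 did not pass (limma, adjusted p = 0.12), although the 2 groups did not overlap, and it passed without replicate 3 (-0.82, adjusted p = 0.045). Myh11 differed by -0.58 ± 0.18, Synpo2 by -0.55 ± 0.10, Acta2 by -0.49 ± 0.10, Actg2 by -0.44 ± 0.26, Cnn1 by -0.35 ± 0.35 and Tagln by -0.32 ± 0.11. Each SE comes from a spread shared with the PDGFRA-MED libraries. There the highest library was 5.10 times the lowest for Cnn1 and 3.15 times for Actg2, against 1.55 and 1.72 times in CD29-HIGH cells. For Mylk and these 6 genes every distal library lay below every proximal one, whereas Myocd overlapped, with 111, 120 and 113 RPKM in distal libraries and 108, 119 and 107 RPKM in proximal libraries (0.04 ± 0.22). The members' median was -0.49, against 0.01 over all genes. The test of the difference itself, the distal minus proximal change in CD29-HIGH cells less that in PDGFRA-MED cells, gave -1.19 ± 0.15 for Des (limma, adjusted p = 0.035) and passed for no other member, where 0.780% of all genes passed. Des had 29.6, 29.0 and 33.2 RPKM in distal PDGFRA-MED libraries, against 31.8, 30.5 and 33.7 RPKM in proximal ones. Over 22 alternatives its value lay between -1.32 and -1.06, but the call was lost in 16 of them, with an adjusted p as high as 0.62. These were quantile normalization, the fit without a replicate block (adjusted p = 0.12), the omission of any replicate number and that of any single proximal or distal library except replicate 3 of proximal CD29-HIGH cells. Mid against proximal and distal against mid gave 0 of 9 members, against 0.277% and 0.180% of all genes, and the distal drop of Des against mid was -0.98 ± 0.11 (adjusted p = 0.11).

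**Figure D2:**
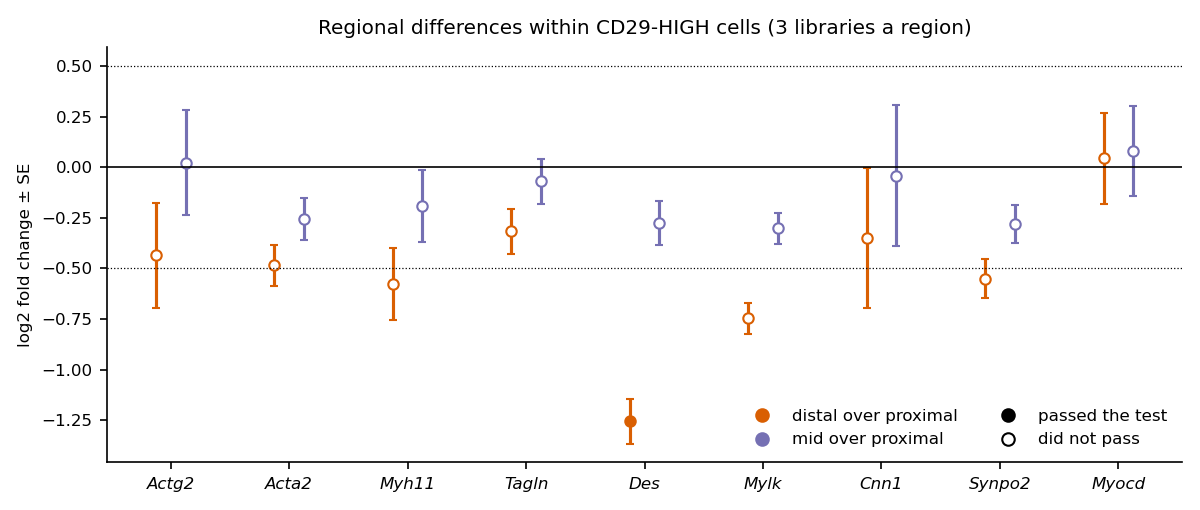
Log2 fold change ± SE of each member within CD29-HIGH cells, for distal over proximal and mid over proximal, with 3 libraries a region. The SE comes from a spread shared with PDGFRA-MED libraries. Filled points passed the test, open points did not, and dotted lines mark the minimum change of 0.5. Des alone is filled, at -1.26 for distal over proximal, and Myocd lies at 0.04.

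Genes of other lists also differed between distal and proximal CD29-HIGH cells. Of 16 genes that control contraction 4 were lower distally: phospholamban (Pln), which restrains the calcium pump of the sarcoplasmic reticulum, at -2.16 ± 0.19, Ryr2 at -1.16 ± 0.12, and the myosin phosphatase subunits Ppp1r12a (-0.76 ± 0.06) and Ppp1cb (-0.75 ± 0.06). Of 16 partners of the filaments 0 passed, and among the transcription factors Nkx3-2 was lower, at -1.44 ± 0.10. Markers of other muscle were read beside them. The 4 striated markers summed to 85.8 to 112 RPKM in distal libraries, against 233 to 273 RPKM in proximal ones. Of the 4 only Ckm, the creatine kinase of striated muscle, passed, at -3.55 ± 0.16, while Actc1 (-1.03 ± 0.15, adjusted p = 0.061), Acta1 (-0.39 ± 0.12) and Myl1 (0.22 ± 0.42) did not. The 7 vascular mural markers summed to 238 to 259 RPKM in distal libraries, against 328 to 360 RPKM in proximal ones, and only the pericyte gene Rgs5 passed, at -1.93 ± 0.17, while the other 6 lay between -0.59 and -0.13. Desmin is made in all these kinds of muscle, and the part of each in its distal drop was not tested.

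The members varied together within CD29-HIGH cells. Over the 9 libraries, the median of the 15 Pearson correlations among Actg2, Acta2, Myh11, Cnn1, Des and Tagln was 0.93, a group of 6 that was put together after the values were seen. Mylk followed these 6 with a median of 0.94 and Synpo2 with 0.91, while Myocd had -0.03. These libraries share replicate numbers and the regional gradient, so the correlations describe the libraries and carry no test. The genes most like the members within this sort were Ndufs6, Sdc4, Selenom, Calr and Sh3bgr (0.985 to 0.988).

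Whether PDGFRA-HIGH cells, which lie under the epithelium, carry contractile RNA was read against PDGFRA-MED cells, and the 9 members split. Synpo2 had 125, 145 and 147 RPKM in proximal PDGFRA-HIGH libraries, against 17.8, 20.8 and 16.4 RPKM in proximal PDGFRA-MED libraries. Myocd had 17.7, 22.7 and 25.9 RPKM in proximal PDGFRA-HIGH libraries, against 3.12, 2.27 and 4.71 RPKM in PDGFRA-MED ones. Mylk had 111, 113 and 110 RPKM in proximal PDGFRA-HIGH libraries, against 44.7, 49.2 and 44.4 RPKM in PDGFRA-MED ones. For these 3 genes no PDGFRA-HIGH library overlapped a PDGFRA-MED library in any region.

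In the mean over regions, Synpo2 was higher in PDGFRA-HIGH cells by 2.97 ± 0.07, Myocd by 2.14 ± 0.13 and Mylk by 1.26 ± 0.08 on the log2 scale (limma, adjusted p = 1.17e-17, 2.3e-10 and 3e-08), each in 9 of 9 same-numbered pairs. These pairs are 3 replicate numbers in each of 3 regions, so they may not be independent of one another. Des was lower by -1.23 ± 0.29 (limma, adjusted p = 0.043, lower in 8 of 9 pairs). Thus 4 of the 9 members passed, 3 higher and 1 lower, where 13.1% of all genes were higher and 13.7% lower, and the members' median was 0.32 against -0.02 over all genes. Actg2 (0.32 ± 0.47), Acta2 (-0.32 ± 0.24), Myh11 (0.59 ± 0.27), Cnn1 (0.28 ± 0.43) and Tagln (-1.09 ± 0.31) did not pass. Within each region Synpo2, Myocd and Mylk passed and the other 6 did not, where 24.0%, 22.7% and 19.0% of all genes differed in proximal, mid and distal cells.

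The other 6 members varied more between PDGFRA-HIGH libraries. Actg2 had 29.5, 17.4 and 9.47 RPKM in proximal, 70.6, 17.6 and 215 RPKM in mid and 164.97, 40.1 and 20.4 RPKM in distal PDGFRA-HIGH libraries, against 28.1, 18.8 and 59.3, then 33.6, 22.5 and 29.5, and then 29.8, 27.8 and 42.2 RPKM in PDGFRA-MED libraries. Replicate 3 of mid and replicate 1 of distal cells stood above the rest. The same 2 libraries were highest for Acta2, at 179 and 164.8 RPKM, for Myh11, at 127 and 152 RPKM, for Cnn1, at 23.2 and 19.6 RPKM, for Tagln, at 57.3 and 49.0 RPKM, and for Des, at 44.2 and 18.03 RPKM. Over the 9 PDGFRA-HIGH libraries the highest level divided by the lowest was 26.3 for Cnn1, 22.7 for Actg2, 9.20 for Des, 6.77 for Myh11, 6.67 for Tagln and 3.37 for Acta2. For Myocd it was 1.80, for Mylk 1.43 and for Synpo2 1.32.

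**Figure D3:**
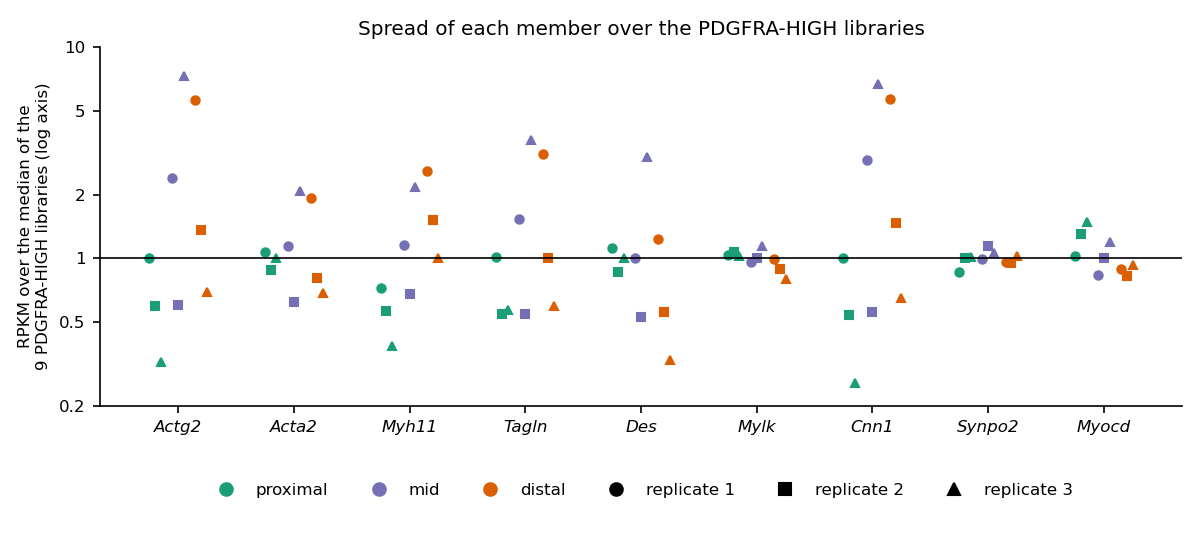
Level of each member in the 9 PDGFRA-HIGH libraries divided by the median of those libraries, on a log axis, with colour for region and shape for replicate. Mid replicate 3 and distal replicate 1 stand highest for Actg2, Acta2, Myh11, Cnn1, Des and Tagln, and Mylk, Synpo2 and Myocd stay within a narrow band.

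The comparison was repeated without those 2 libraries, an alternative chosen after seeing the data. Tagln then passed, at -1.52 ± 0.21 (limma, adjusted p = 0.00046), and Des was lower by -1.63 ± 0.20 (adjusted p = 8.4e-05), while Synpo2 (2.95), Myocd (2.10) and Mylk (1.21) kept their calls. Tagln also passed without either library alone, at -1.34 without mid replicate 3 and -1.29 without distal replicate 1. The call for Des was lost in 17 of 29 alternatives, with values from -1.39 to -1.03 and an adjusted p as high as 0.22: without replicate 1, without replicate 2, and without any single library other than those 2 and replicate 2 of mid PDGFRA-MED cells. In distal cells alone Des passed without replicate 1 of the PDGFRA-HIGH sort (-2.29, adjusted p = 0.011). The 7 fibroblast markers summed to 3444 RPKM in mid replicate 3 and 4232 RPKM in distal replicate 1, within the 3412 to 4542 RPKM of the sort. As a percentage of the mean of CD29-HIGH cells in the same region, the 6 variable members were at 2.47 to 3.53% in mid replicate 3 and 2.60 to 4.42% in distal replicate 1, against 0.0954 to 2.59% in the other 7 libraries. The 4 striated markers summed to 9.11 RPKM in mid replicate 3 and 6.19 RPKM in distal replicate 1, against 2.71 to 5.41 RPKM in the other 7. Among them Actc1 was at 4.62 and 1.94 RPKM in those 2 libraries, against 0.528 to 0.934 RPKM in the other 7, and Ckm at 1.99 RPKM in mid replicate 3 but 0.0374 RPKM in distal replicate 1. The 7 vascular mural markers, at 148.1 and 145.8 RPKM in those 2 libraries, lay within the 141 to 166 RPKM of the other 7. What sets the 2 libraries apart was not tested.

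Between the regions of PDGFRA-HIGH cells 0 of 9 members passed in any of the 3 comparisons, where 2.46% of all genes differed between distal and proximal, 0.292% between mid and proximal and 0.496% between distal and mid. Myh11 had 152, 89.2 and 58.8 RPKM in distal libraries, against 42.3, 33.1 and 22.4 RPKM in proximal libraries, without overlap (1.54 ± 0.46, adjusted p = 0.43). Between the regions of PDGFRA-MED cells 0 of 9 passed as well, where 0.869% of all genes differed between distal and proximal, 0.129% between mid and proximal and 0.143% between distal and mid.

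Set against the CD29-HIGH sort, Synpo2, Myocd and Mylk stood above the other 6 members in the same PDGFRA-HIGH libraries. As a percentage of the CD29-HIGH mean of the same region, Synpo2 stood at a median of 53.0% in PDGFRA-HIGH libraries (35.8 to 62.1%), Myocd at 14.2% (11.8 to 22.4%) and Mylk at 10.1% (8.45 to 13.6%). The other 6 members stood at medians between 0.344% for Actg2 and 1.52% for Myh11. In PDGFRA-MED libraries the medians were 6.05% for Synpo2, 4.33% for Mylk and 3.34% for Myocd, with the other 6 between 0.386% for Actg2 and 2.24% for Des. The order was not the same in every region, since in distal PDGFRA-MED cells Des averaged 4.56% and Myocd 3.95%. Levels set across tables were brought to 1 scale with the libraries they share, whose values differed by factors of 1.02 to 1.05.

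**Figure D4:**
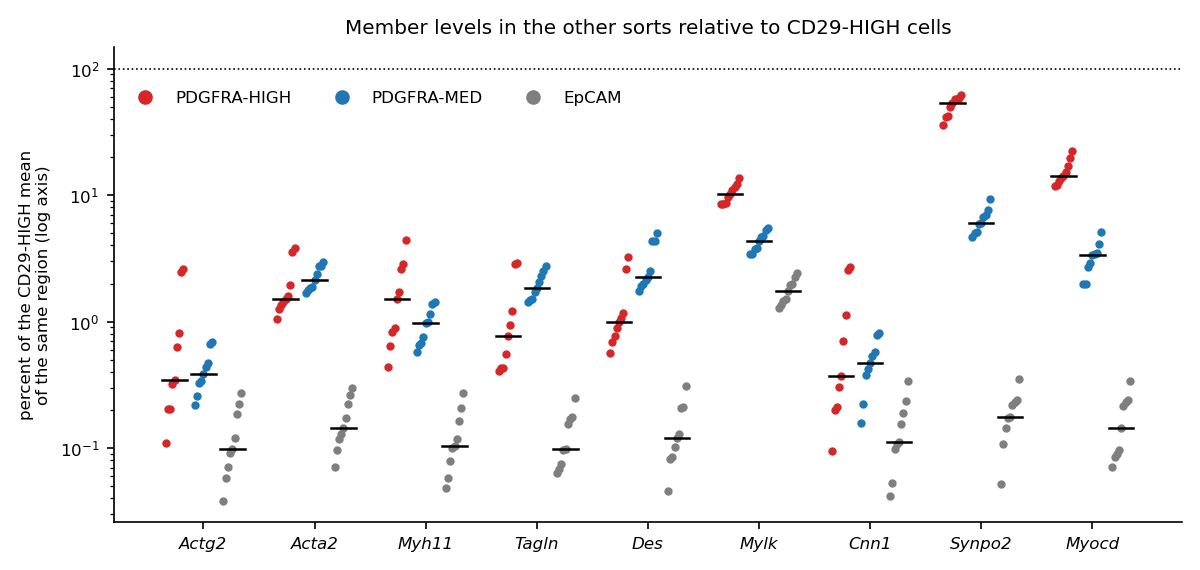
Level of each member in single PDGFRA-HIGH, PDGFRA-MED and EpCAM libraries as a percentage of the CD29-HIGH mean of the same region, on a log axis, with a line at the median of 9 libraries and a dotted line at 100. Synpo2 reaches 53.0% in PDGFRA-HIGH cells, Mylk stays above the other members in EpCAM cells at 1.75%, and Actg2 is at 0.344% in PDGFRA-HIGH cells.

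Other muscle genes also differed between PDGFRA-HIGH and PDGFRA-MED cells, where 13.1% of all genes were higher and 13.7% lower in PDGFRA-HIGH cells. Of 16 partners of the filaments 4 were higher in PDGFRA-HIGH cells, including the focal adhesion protein Vcl (1.45 ± 0.03), the actin crosslinker Actn1 (0.94 ± 0.04) and Smtn (0.66 ± 0.04). Of 15 genes that control contraction 4 were higher, the largest being Kcnmb1 at 0.92 ± 0.08 and Ppp1r12a at 0.75 ± 0.04. Of 5 receptors Tacr1 (2.97 ± 0.06) and Chrm3 (0.75 ± 0.08) were higher and Chrm2 (-1.58 ± 0.23) and Tbxa2r (-1.20 ± 0.08) were lower. Of 12 transcription factors 3 were higher, including Foxf2 (2.40 ± 0.10) and Foxf1 (2.07 ± 0.10), which the gut mesenchyme makes in response to Hedgehog signals, and 3 were lower, including Gata6 (-2.37 ± 0.17) and Nkx3-2 (-1.995 ± 0.08). Correlations among the 6 members that split off had a median of 0.87 over the 9 PDGFRA-HIGH libraries, against 0.29 with Mylk, -0.13 with Synpo2 and -0.35 with Myocd.

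In untreated E16.5 epithelium the members were low. All 9 were lower in EpCAM than in PDGFRA-MED cells, with a median log2 fold change of -2.90, where 27.6% of all genes were lower, and all 9 were lower than in PDGFRA-HIGH cells, where 30.3% were. Against PDGFRA-HIGH cells Synpo2 differed by -7.17 ± 0.07 and Myocd by -4.73 ± 0.13. The call for Cnn1 against PDGFRA-MED cells (-1.40 ± 0.43, limma, adjusted p = 0.045) was lost in 17 of 28 alternatives, with values from -1.89 to -0.95 and an adjusted p as high as 0.255. These included the omission of replicate 1, of replicate 3, of any single library with those numbers except distal PDGFRA-MED replicate 1, and of distal PDGFRA-MED replicate 2. The call for Actg2 (-1.80 ± 0.47, adjusted p = 0.012) was lost without replicate 1 (-1.70) and without replicate 3 (-1.33). Against PDGFRA-HIGH cells, Actg2 (-2.12 ± 0.47) and Cnn1 (-1.68 ± 0.43) lost their calls without replicate 1 (-1.58 and -1.19). As a percentage of CD29-HIGH cells, 8 members had medians between 0.0977% for Actg2 and 0.176% for Synpo2.

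Mylk stood apart from the other 8 in the epithelium. It had 9.88, 11.7 and 17.5 RPKM in distal, 20.4, 20.9 and 25.4 RPKM in mid and 17.6, 19.0 and 22.8 RPKM in proximal EpCAM libraries, a median of 1.75% of the CD29-HIGH level. That is 4.99 to 37.9 times the median percentage of the other 8 members in the same library. Distal libraries lay below mid and proximal ones, but between regions 0 of 9 members passed, where 5.89% of all genes differed between distal and proximal, 2.35% between mid and proximal and 2.06% between distal and mid. Between distal and mid, Mylk passed without replicate 3 of distal cells (-0.99, adjusted p = 0.018) and without replicate 3 of all groups (-0.91, adjusted p = 0.016). Over the 9 libraries the 6 members led by Actg2 correlated at a median of 0.92 with each other, and with Mylk at -0.43. The 7 fibroblast markers summed to 16.9 to 50.2 RPKM in these EpCAM libraries, against 5565 to 9478 RPKM in PDGFRA-MED libraries, and their part in the members' level was not tested.

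At E13.5, 5 members were high enough to be tested in epithelium, and 0 of 5 differed between distal and proximal, where 2.16% of all genes did. Mylk had 1.90, 1.26 and 1.11 RPKM in distal libraries, against 2.02, 1.81 and 1.73 RPKM in proximal libraries. Actg2 was at 0.923 to 2.64 RPKM and Acta2 at 2.90 to 8.02 RPKM over the 6 libraries. Des, Myocd and Synpo2 did not reach 1 RPKM in 3 libraries, and Cnn1 is absent from the authors' E13.5 values. E13.5 values were scaled in a table of their own and are not compared with E16.5.

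The inhibitor experiment asks how epithelium changes when Wnt secretion is blocked. LGK974 libraries were compared with 3 untreated libraries and 1 vehicle library per region, and 7 members could be tested, since Myocd and Synpo2 did not reach 1 RPKM in 3 libraries. Cnn1 met this limit only through control libraries, as it was at 0.0424 to 0.641 RPKM after LGK974. Tagln met it in every untreated library (1.29 RPKM or more) but had a median of 0.633 RPKM after LGK974. Actg2 and Tagln were lower and Mylk was higher after LGK974. Thus 3 of 7 members passed in the mean over regions, where 10.3% of all genes differed, with a median of -1.08 for the members and 0.01 for all genes. This mean counts regions of 1 replicate number as separate libraries, although they may come from the same dosed dam.

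Mylk had 27.5, 34.7 and 32.1 RPKM in distal LGK974 libraries, against 9.46, 11.3 and 16.8 RPKM in untreated and 6.62 RPKM in vehicle libraries. In mid epithelium it had 44.0, 36.6 and 37.4 RPKM after LGK974, against 19.5, 19.9 and 24.6 RPKM in untreated and 17.8 RPKM in vehicle libraries. In proximal epithelium it had 21.8, 21.4 and 24.5 RPKM after LGK974, against 17.02, 18.2 and 22.0 RPKM in untreated and 18.9 RPKM in vehicle libraries. Distal and mid groups did not overlap, while proximal groups did. The log2 fold change was 1.54 ± 0.19 in distal epithelium (limma, adjusted p = 0.00035), 0.93 ± 0.19 in mid epithelium (adjusted p = 0.19), 0.24 ± 0.19 in proximal epithelium (adjusted p = 1) and 0.90 ± 0.11 in the mean (adjusted p = 0.012). Against the 3 vehicle libraries alone, which share the strain of the treated ones, the mean was 1.17 ± 0.09. That fit assumes that the lone vehicle library of a region varies like the other groups. The 3 vehicle libraries carry the same replicate number, so the spread between vehicle-dosed dams was not measured.

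The distal and proximal effects of LGK974 on Mylk differed by 1.29 ± 0.28, which did not pass (limma, adjusted p = 0.080), where 5.21% of all genes passed this test of the difference. It passed with a replicate block (1.29 ± 0.23, limma, adjusted p = 0.033), without replicate 3 of untreated distal epithelium (1.51, adjusted p = 0.0023) and without replicate 3 throughout (1.49, adjusted p = 0.020). Replicate numbers here join untreated and dosed libraries of separate experiments, so they do not stand for a shared mother. In mid epithelium Mylk passed when replicate 3 was left out (1.06, adjusted p = 0.046). The mean over regions did not pass without replicate 1 (0.88, adjusted p = 0.17), without replicate 2 (0.91, adjusted p = 0.13) or with quantile normalization (0.80, adjusted p = 0.074).

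Actg2, the enteric smooth muscle actin, went the other way. It had 1.69, 2.19 and 0.655 RPKM in distal LGK974 libraries, against 7.28, 16.8 and 11.4 RPKM in untreated and 2.43 RPKM in vehicle libraries. It had 1.04, 1.04 and 1.80 RPKM in proximal LGK974 libraries, against 5.91, 8.03 and 3.17 RPKM in untreated and 6.23 RPKM in vehicle libraries. LGK974 libraries lay below all controls of their region. The mean was -1.89 ± 0.30 (limma, adjusted p = 0.0016), but against vehicle alone it was -1.35 ± 0.27 and did not pass (adjusted p = 0.058), and without replicate 1 it was -1.83 (adjusted p = 0.062). The distal value of -2.13 ± 0.51 (adjusted p = 0.022) was lost in 8 of 18 alternatives: limma-voom (-2.54), a fit of the compared groups alone, and omission of replicate 1 (-2.26), 2 (-2.03) or 3 (-1.59), of untreated distal replicate 2 (-1.77) or 3 (-1.95), or of distal LGK974 replicate 3 (-1.77). These levels rest on 16 to 62 reads per LGK974 library.

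Tagln, which encodes the actin-binding protein transgelin, had 0.633, 0.446 and 0.509 RPKM in distal LGK974 libraries, against 2.73, 4.02 and 2.53 RPKM in untreated and 1.45 RPKM in vehicle libraries. Its level rested on 10 to 30 reads per LGK974 library. Its mean was -1.17 ± 0.15 (limma, adjusted p = 0.0019) and its distal value -1.57 ± 0.26 (adjusted p = 0.0031), but the mean did not pass against vehicle alone (-1.03 ± 0.17, adjusted p = 0.053) or with quantile normalization (-0.93, adjusted p = 0.068), and neither did the distal value with quantile normalization (-1.24, adjusted p = 0.055). Acta2 (-1.08 ± 0.21), Myh11 (-1.18 ± 0.26), Cnn1 (-0.89 ± 0.20) and Des (-0.60 ± 0.18) did not pass, with adjusted p between 0.060 and 1. With a replicate block, whose numbers join untreated and dosed libraries of separate experiments, Acta2 (-1.14 ± 0.18, limma, adjusted p = 0.015) and Myh11 (-1.25 ± 0.23, adjusted p = 0.029) passed. Acta2 and Myh11 passed without the distal vehicle library (-1.17 and -1.29) and without replicate 3 of untreated mid epithelium (-1.14 and -1.27). Acta2 also passed without replicate 3 of untreated proximal epithelium (-1.14) and without replicate 2 of mid or distal LGK974 cells (-1.18 and -1.15). In distal epithelium Actg2, Tagln and Mylk passed, where 14.3% of all genes did, and without the vehicle library Acta2 (-1.49) and Myh11 (-1.87) did too. In mid and proximal epithelium 0 of 7 passed, where 7.31% and 2.18% did.

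**Figure D5:**
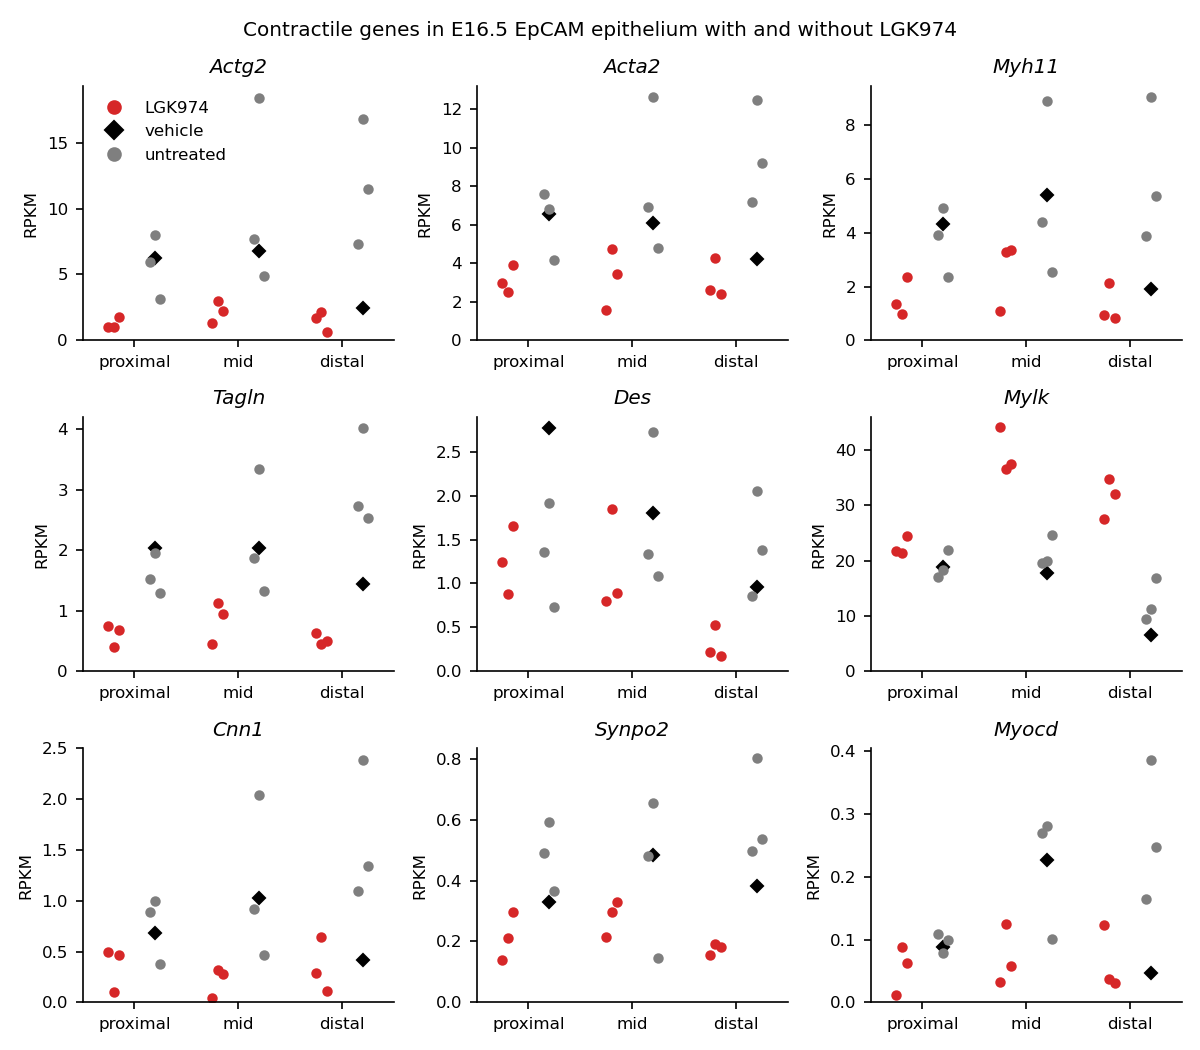
Level of each member in E16.5 EpCAM epithelium by region, in RPKM, with 3 LGK974 libraries on the left of each region and 3 untreated libraries and 1 vehicle library on the right. Mylk lies at 27.5 to 34.7 RPKM in distal LGK974 libraries, above all 4 distal controls, while Actg2 and Tagln lie below the controls in every region.

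Relative to CD29-HIGH cells, Mylk was at 1.71 to 4.66% in LGK974 libraries, against 1.27 to 2.44% in untreated and 0.890 to 1.76% in vehicle libraries. The ratio of that percentage to the median of the other 8 members in the same library was 36.1 to 164 in LGK974 libraries, against 4.99 to 37.9 in untreated and 11.9 to 16.4 in vehicle libraries. The ranges overlap, with untreated mid replicate 3 at 37.9 and LGK974 proximal replicate 3 at 36.1. This ratio also rises when the other 8 members fall. In proximal epithelium Mylk itself averaged 1.81% in LGK974 and 1.53% in untreated libraries, and was at 1.52% in the vehicle library.

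The 7 fibroblast markers moved with the lower members. They summed to 12.1 to 20.1 RPKM in distal LGK974 libraries, against 25.8 to 44.6 RPKM in untreated and 38.7 RPKM in vehicle libraries. They summed to 3.51 to 29.4 RPKM in mid LGK974 libraries, against 16.4 to 47.8 RPKM in untreated and 35.2 RPKM in vehicle libraries, and to 6.77 to 16.1 RPKM in proximal LGK974 libraries, against 16.9 to 25.2 RPKM in untreated and 19.5 RPKM in vehicle libraries. None of the 7 was at 0. Of the 5 markers of interstitial cells of Cajal, 4 were in the table and summed to 0.990 to 1.21 RPKM in distal LGK974 libraries, against 12.4 to 14.7 RPKM in untreated and 11.1 RPKM in vehicle libraries. In mid epithelium they summed to 0.674 to 1.29 RPKM in LGK974 libraries, against 7.11 to 9.53 RPKM in untreated and 7.11 RPKM in vehicle libraries. In proximal epithelium they summed to 4.61 to 7.52 RPKM in LGK974 libraries, against 9.15 to 13.0 RPKM in untreated and 5.40 RPKM in vehicle libraries, so that the vehicle library lay within the LGK974 range. Most of the distal sum came from Kit, at 0.357 RPKM on average after LGK974, 9.06 RPKM in untreated and 6.65 RPKM in vehicle epithelium, and Etv1, at 0.171, 3.57 and 3.29 RPKM. Ano1 averaged 0.311 RPKM after LGK974, 0.395 RPKM in untreated and 0.5261 RPKM in vehicle epithelium, and Thbs4 0.279, 0.335 and 0.683 RPKM. Kit did not set interstitial cells apart from epithelium, since in the table with both kinds of sort it averaged 9.44 RPKM in untreated distal EpCAM, 0.496 RPKM in distal PDGFRA-HIGH and 6.47 RPKM in distal PDGFRA-MED libraries. Epcam averaged 387 RPKM in LGK974 libraries and 502 RPKM in controls. The part of fibroblasts in the lower level of Actg2 and Tagln was not tested. Strain and treatment cannot be told apart in the comparison with untreated libraries.

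Among other muscle genes in epithelium, 15 partners of the filaments were tested, of which Tpm2 (-1.09 ± 0.17), Myl9 (-0.98 ± 0.17) and Smtn (-0.73 ± 0.06) were lower after LGK974. Of 10 genes that control contraction Itpr1, the inositol trisphosphate receptor, was lower (-0.95 ± 0.07). In distal epithelium Kcnma1 was higher, with 4.003 RPKM after LGK974 and 1.02 RPKM in controls (1.57 ± 0.18, limma, adjusted p = 9.7e-05). Of 7 transcription factors 0 passed in the mean over regions.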

How the data were processed

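Total RNA of the sorted cells was made into stranded libraries with a low-input kit. The authors aligned the reads with Rsubread to mm10 (the submitters' notes also list GRCh38), counted them per RefSeq gene by strand with featureCounts, dropped low genes and deposited RPKM values, scaled by edgeR within each of 4 tables. The table with EpCAM and PDGFRA sorts also gives gene lengths and the authors' own mean log2 expression per gene, which was not used. Every value of a gene with a known length came out as a whole number of reads within a tolerance of 0.01 (100%), with 15072991 to 26658039 reads per library. These reads served only for depth and for 1 alternative, limma-voom.

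The RPKM values were tested as log2(RPKM + 0.5) with limma 3.58.1 in R 4.3.3, against a minimum change of 0.5 on the log2 scale, among genes with at least 1 RPKM in 3 libraries. Fold changes on this scale understate those of low genes. The p-values were adjusted over all genes of a fit by the Benjamini-Hochberg method, with a threshold of 0.05. As in the study's model, the replicate number, which the study takes for the mother, was a block, except in the inhibitor table, where untreated and vehicle libraries were pooled as 4 controls per region. In that table a number joins untreated and dosed libraries of separate experiments. A block or an omitted number there does not stand for a single mother. All groups of a table shared 1 estimate of the spread. Sorts and regions of 1 number may share fetuses or a mother. Where no block was used, as in the inhibitor table, regions of 1 number were taken as separate, so p-values of its mean over regions may be too small. Libraries of a group differed by more than sampling noise in all 69 pairs.

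Members and gene lists were chosen with earlier results of these data known. All 9 members are described, and of each other list up to 4 called genes with the largest change per comparison are named, apart from 1 that is not reported here. Markers were summed in RPKM. Identity and shared stretches of 50 bases were computed on GENCODE mouse transcripts. Alternatives were pseudocounts of 0.1 and 1, no filter on low values, quantile normalization, limma-voom, the block, the compared groups alone, other controls, and each library or replicate number left out. The script was tested on simulated data.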

Additional observations from a re-analysis of the deposited data

Results flagged for a closer look

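A single result differed between sorts under the same contrast. The distal minus proximal change of Des was lower in CD29-HIGH than in PDGFRA-MED cells by -1.19 on the log2 scale (limma, adjusted p = 0.035), and this test of the difference did not pass in 16 of 22 alternatives. Among 27 groups of 4 control libraries in the inhibitor table, 1 for each gene and region, 0 held a library that stood apart from the others, where chance gives about 1 in 20.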

How the results depend on the processing

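Of 217 counts of called members under other settings, 206 stayed within 1.5 times their value and 11 moved. After LGK974, the 3 members called in the mean over regions became 6 with a pseudocount of 0.1, 1 with quantile normalization, 5 with a replicate block and 1 with vehicle libraries only as controls. The difference of CD29-HIGH and PDGFRA-MED cells between regions went to 0 calls, against 1, with quantile normalization and with no replicate block, and that of LGK974 went to 1 call, against 0, with the replicate block. When only the groups compared were fitted, PDGFRA-HIGH against PDGFRA-MED in proximal cells gave 5 calls, against 3, PDGFRA-HIGH distal against proximal gave 1, against 0, and LGK974 in mid epithelium gave 1, against 0. Without the 2 PDGFRA-HIGH libraries of highest Actg2, distal PDGFRA-HIGH against PDGFRA-MED cells gave 5 calls, against 3. When a library or replicate number was left out, calls ranged from 0 to 2 for CD29-HIGH distal against proximal, from 0 to 1 for the regional difference of CD29-HIGH, for EpCAM distal against mid, for LGK974 in mid epithelium and for its regional difference, from 2 to 5 for LGK974 in distal epithelium and from 1 to 5 in the mean over regions. No member changed direction past a threshold, and the cause of these changes was not tested.

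Same-numbered libraries correlated in their deviations by 0.239 on average in the CD29 table and 0.137 in the table with EpCAM and PDGFRA sorts (over 0.1 in 32 of 45 and 59 of 108 pairs). The labels do not name the mother. Over all genes, calls changed by more than 1.5 times in few comparisons. PDGFRA-MED distal against mid had 21 calls, against 11 with a pseudocount of 1, 7 with only the groups compared and 9 in the CD29 table. E13.5 distal against proximal had 270, against 424 with limma-voom. With only the groups compared, PDGFRA-MED gave 56 distal against proximal instead of 128 and 6 mid against proximal instead of 19, and proximal LGK974 gave 185 instead of 281, or 530 against untreated libraries alone. PDGFRA-HIGH distal against mid had 73, against 24 without the 2 libraries. In epithelium, Cnn1 rests on 2 to 27 reads and Myocd on 1 to 12 reads per LGK974 library, which limits their precision.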
